A study of Mus musculus with 2 samples.

Results

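Transcripts of 9 genes that carry the B cell receptor's signal or hold B cell identity were followed through the immune cells of the pancreatic islets of NOD mice: Cd79a, Cd79b, Ms4a1, Cd22, Bank1, Ebf1, Pax5, Blk and Fcmr. They were picked by name from the 27998 genes counted, and each name matched 1 row. Leukocytes bearing CD45.1, the CD45 allele of this strain, were sorted from islets of female NOD/ShiLtJ mice, an inbred strain with spontaneous autoimmune diabetes. Mice were 12 weeks old for 1 droplet library (10x Genomics Chromium, 3′ end counting) and 7 weeks old for the other, with no treatment or genetic change named in the labels, and how many mice entered each pool was not given in them. Filtering left 2741 cells at 12 weeks, whose median depth was 4925 unique molecular identifiers (UMIs, each a counted transcript molecule), and 1099 at 7 weeks, whose median was 5636. With 1 library per age there was no test. Every interval is an exact 95% counting interval and holds no spread between mice, libraries or cells.

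The B cell receptor is a membrane immunoglobulin whose signal passes through the Cd79a and Cd79b chains. Ebf1 and Pax5 are transcription factors that set up and keep B cell identity, and Pax5 is shut off when a B cell turns into an antibody-secreting plasma cell. Plasma cells express Jchain, the joining chain of secreted immunoglobulin. Ms4a1 encodes CD20, Cd22 an inhibitory sialic acid-binding receptor, Bank1 a scaffold of receptor signalling, Blk a Src-family kinase and Fcmr the Fc receptor for immunoglobulin M. Immunoglobulin heavy and light chain constant genes were not analysed here.

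On GRCm38, the genes lie at 7:24897381-24902197 (Cd79a), 11:106311341-106314762 (Cd79b), 19:11249675-11266241 (Ms4a1), 7:30865402-30880342 (Cd22), 3:136053363-136326066 (Bank1), 11:44617317-45008091 (Ebf1), 4:44524757-44710487 (Pax5), 14:63372836-63417037 (Blk) and 1:130865669-130880791 (Fcmr). All are protein-coding. For 5 of the 9 genes (Ms4a1, Cd22, Bank1, Ebf1 and Pax5) another counted gene is annotated on the opposite strand of the same stretch, and how strand was used in counting is not given in the sources used here.

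Promoter sequence from RefSeq (GRCm38.p6) was matched for 6 of the 9 genes, with 7 starts in all since Ebf1 has 2. The 250 bases before each start were searched on both strands for the core of the Ebf1 site, CCCNNGGG, its longer form with a T before and an A after that core, the octamer ATGCAAAT bound by Oct factors, and the E box CAGGTG. The longer Ebf1 motif stood in the Cd22 window, 49 bases before the start, against 0.779% of 32851 mouse promoter windows of that length. The core stood in the Cd22 and Bank1 windows (11.8% of all windows), the octamer in none of the 7 (1.60% of all), and the E box in the Cd79a, Cd22 and Bank1 windows (17.2% of all). A match is a description of letters and shows no binding. Cd22 and Bank1 are printed because they hold the Ebf1 core, in capitals, and because both were low in B cells with much Jchain. The windows are chr7:30879029-30879278 (Cd22) and chr3:136326067-136326316 (Bank1), minus strand, and the sequences read 5′ to 3′ toward the RefSeq start. The Bank1 window adjoins the gene as placed above. The Cd22 window lies inside the stretch given above for Cd22, so the 2 sources differ on where that gene starts.
Cd22: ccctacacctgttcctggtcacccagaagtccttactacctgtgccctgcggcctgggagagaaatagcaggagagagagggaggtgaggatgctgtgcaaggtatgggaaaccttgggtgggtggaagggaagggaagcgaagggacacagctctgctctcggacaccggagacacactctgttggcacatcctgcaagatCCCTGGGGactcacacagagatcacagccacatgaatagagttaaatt
Bank1: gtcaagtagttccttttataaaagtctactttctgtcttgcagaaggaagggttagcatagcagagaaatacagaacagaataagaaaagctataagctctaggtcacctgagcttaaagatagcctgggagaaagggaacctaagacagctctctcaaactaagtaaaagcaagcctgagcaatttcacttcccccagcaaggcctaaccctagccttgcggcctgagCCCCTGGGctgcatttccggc

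B cells were taken as cells with at least 2 Cd79a UMIs and no UMI of Cd3d, Cd3e or Cd3g, the chains of the T cell receptor complex. There were 491 at 12 weeks, 17.9% of the library (16.5 to 19.4), and 115 at 7 weeks, 10.5% (8.72 to 12.4). Their median depth was 4600 UMIs at 12 weeks and 4968 at 7 weeks. B cell markers that played no part in the gate were present: Fcer2a, which encodes CD23, had a UMI in 68.0% of the cells at 12 weeks and 70.4% at 7 weeks, and Cd74, the invariant chain of MHC class II, in all of them at both ages. Beside these, macrophage markers summed to 1.56 UMIs per 10000 in the 12 week B cells and 0.332 in the 7 week B cells, acinar markers to 1.60 and 0.921, and islet endocrine markers to 1.29 and 0.136. Their part in the differences between ages was not tested. The 2 libraries share 2 cell barcodes.

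Cd79a itself set the gate, so its level only describes the cells. It reached 26.7 UMIs per 10000 at 12 weeks (26.1 to 27.4) and 23.0 at 7 weeks (21.9 to 24.2). The limit of 2 UMIs fell in a near-empty stretch: 5 B cells at 12 weeks and 4 at 7 weeks held 2 or 3 Cd79a UMIs, while 385 and 78 held 10 or more. Just outside the limit, 28 CD3-negative cells at 12 weeks and 4 at 7 weeks held a single Cd79a UMI, and Ms4a1 was found in 3 of the 28 and in none of the 4. Just inside it, Ms4a1 was found in 2 of the 5 cells at 12 weeks and 2 of the 4 at 7 weeks.

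The requirement of no CD3 UMI left out many cells that carried most of these genes. Of 681 cells with at least 2 Cd79a UMIs at 12 weeks, 190 had CD3 UMIs, and of 183 at 7 weeks, 68 did. Among these, 173 cells at 12 weeks and 53 at 7 weeks had only 1 or 2 CD3 UMIs, at median depths of 4816 and 5357 UMIs. In those 173 cells Ebf1 stood at 83.6% of its level in the gated B cells, Pax5 at 86.6% and Ms4a1 at 91.1%, and a median of 6 of the other 8 genes was detected per cell. At 7 weeks the levels were 107%, 130% and 104% of the gated B cells, with a median of 7 genes. All 8 genes were found in 25 of the 173 cells and 11 of the 53. The 17 cells at 12 weeks and 15 at 7 weeks with 3 or more CD3 UMIs had 18307 and 11864 UMIs at the median, and in them the members ranged from 9.68% of the B cell level (Fcmr) to 23.5% (Ms4a1) at 12 weeks and from 18.7% (Ebf1) to 39.0% (Ms4a1) at 7 weeks.

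Cd79b, the second signalling chain, was close to universal in the gated B cells. It had a UMI in 98.4% of them at 12 weeks (96.8 to 99.3) and 95.7% at 7 weeks (90.1 to 98.6), with a median of 7 UMIs per cell at 12 weeks and 6 at 7 weeks. Its summed level was 14.3 UMIs per 10000 at 12 weeks and 12.0 at 7 weeks, a ratio of 1.19 (1.10 to 1.28). Ms4a1 was found in 96.9% of B cells at 12 weeks and 92.2% at 7 weeks, at 11.2 and 8.15 UMIs per 10000. Its ratio of 1.37 (1.25 to 1.51) was the highest of the 9 genes, and came to just over 1.5 when every cell was thinned to 3000 UMIs.

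Of the transcription factors, Ebf1 was found in 98.2% of B cells at 12 weeks and 96.5% at 7 weeks, at 10.1 and 9.69 UMIs per 10000, a ratio of 1.04 (0.958 to 1.14). Pax5 had a UMI in 53.8% of B cells at 12 weeks (49.2 to 58.2) and 58.3% at 7 weeks (48.7 to 67.4). Its level was 1.55 UMIs per 10000 at 12 weeks and 1.83 at 7 weeks, a ratio of 0.847 (0.690 to 1.05). The median cell held 1 Pax5 UMI at either age, so a Pax5-negative cell is not distinguishable from an unsampled one at this depth.

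Among the receptor's modulators, Fcmr was higher at 12 weeks, at 4.58 UMIs per 10000 against 3.53 at 7 weeks (ratio 1.3, 1.13 to 1.5), with a UMI in 82.1% and 80.0% of B cells. Bank1 stood at 6.04 UMIs per 10000 at 12 weeks and 5.25 at 7 weeks (ratio 1.15, 1.02 to 1.3). Cd22 stood at 2.71 at 12 weeks and 2.39 at 7 weeks (1.14, 0.956 to 1.36), and was found in 73.3% and 72.2% of the cells. Blk, the least sampled, had a UMI in 39.9% of B cells at 12 weeks and 46.1% at 7 weeks. It stood at 1.04 UMIs per 10000 at 12 weeks and 1.19 at 7 weeks (0.873, 0.678 to 1.14).

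Of the 8 genes outside the gate, 0 differed by more than 1.5-fold between ages. Over the 5374 genes with at least 50 UMIs, 11.9% were more than 1.5-fold higher and 6.79% more than 1.5-fold lower at 12 weeks. The counting interval lay above 1 for 4 of the 8 (Cd79b, Ms4a1, Bank1 and Fcmr) and below 1 for none, and lay apart from 1 for 17.8% of all genes. The 8 genes held 280 (Blk) to 3833 (Cd79b) UMIs at 12 weeks, while the genes behind these shares go down to 50 UMIs in all. How far counting depth sets the shares apart from the 8 was not tested. The median log2 ratio of the 8 was 0.19, beside 0.10 over all genes tested. Leaving out cycling cells and those with 5 or more Jchain UMIs gave a median of 0.22, with 11.9% of 5007 genes higher and 6.05% lower. A gate with up to 2 CD3 UMIs was chosen after the data were seen. In it the age ratio was 1.10 for Cd79b, 1.32 for Ms4a1, 1.10 for Bank1 and 1.11 for Fcmr. Those of Cd79b and Fcmr lay below their intervals in the main gate.

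**Figure D1:**
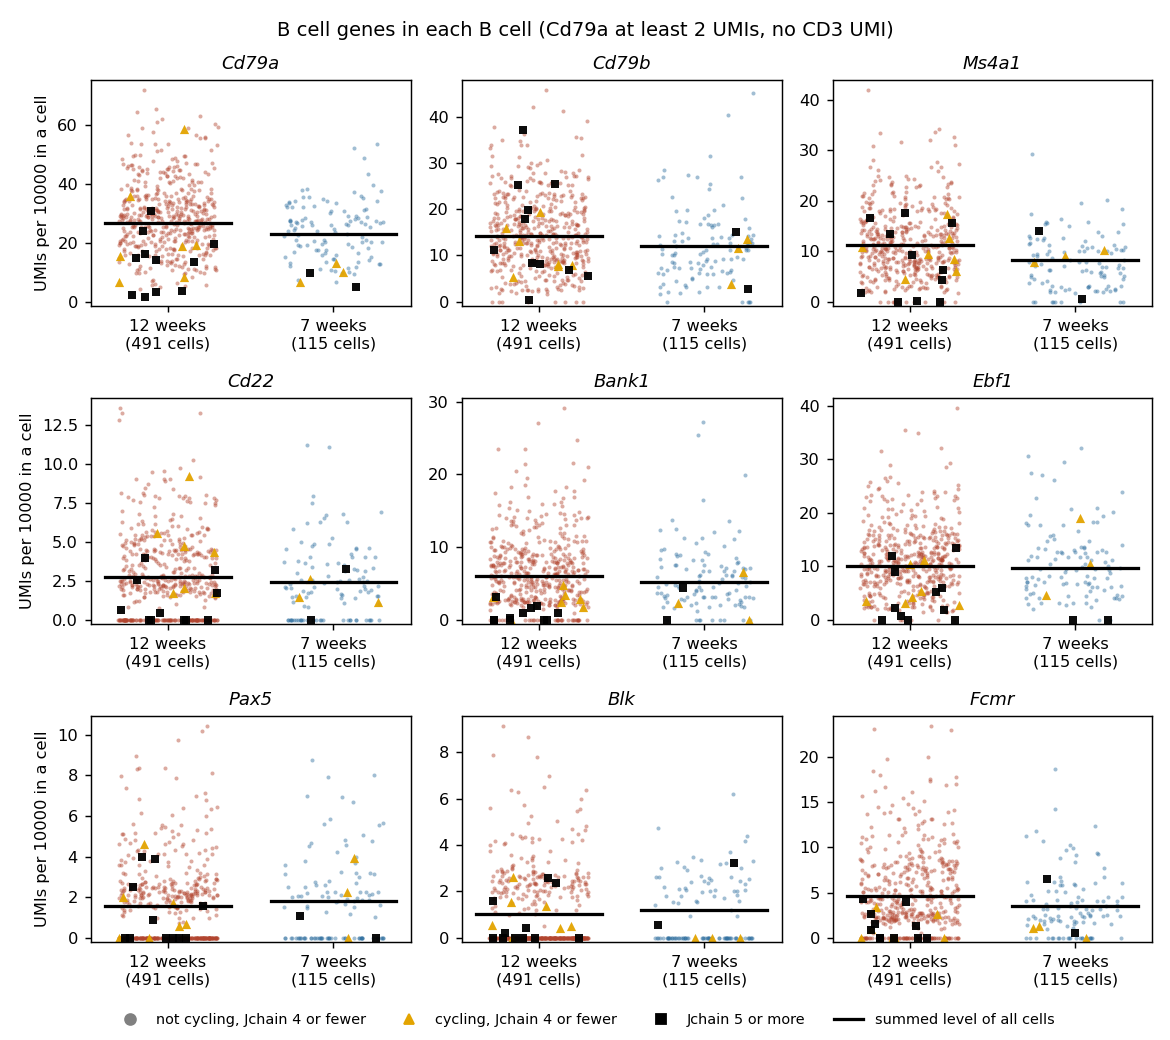
UMIs per 10000 of each of the 9 genes (vertical axes) in every gated B cell at 12 weeks (491 cells, left) and 7 weeks (115 cells, right). Bars are the summed level, triangles cycling cells and squares cells with at least 5 Jchain UMIs. The ages overlap for every gene. At 12 weeks a Bank1 UMI was found in 54.5% of the squares and 91.7% of cells with 4 or fewer Jchain UMIs. For Cd22 the shares were 54.5% and 73.8%. Pax5 was sparse in both, at 45.5% and 54.0%.

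Within the B cells most of the genes were detected together. A median of 6 of the 8 genes was detected per cell at both ages, 94.5% of B cells at 12 weeks and 93.0% at 7 weeks held 5 or more, and all 8 were found in 67 cells at 12 weeks and 19 at 7 weeks. With every cell thinned to 3000 UMIs, 473 B cells at 12 weeks and 105 at 7 weeks were neither cycling nor Jchain-high, and across these the Spearman correlations of the 36 pairs of the 9 genes had a median of 0.04 at 12 weeks and 0.02 at 7 weeks, and were highest for Cd79a with Cd79b, at 0.23 at 12 weeks and 0.36 at 7 weeks. The cells of each set share 1 library. Counts this sparse hold little information on such pairs.

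Other genes of the B cell programme were read from lists of 20 signalling, surface and transcription factor genes, in the same age comparison. Over all 5374 genes tested, 11.9% were past 1.5-fold higher at 12 weeks and 6.79% past it lower. Of 17 signalling genes tested, 0 were past 1.5-fold higher at 12 weeks and 1 was past it lower: the adaptor Grb2, at 0.901 UMIs per 10000 against 1.68 at 7 weeks (ratio 0.537, 0.427 to 0.679). The kinase Syk stood at 2.58 at 12 weeks and 3.02 at 7 weeks, and the phosphatase Ptpn6 at 3.99 and 3.49. Of 18 surface genes, 0 passed 1.5-fold either way. Cd72, an inhibitory receptor, reached 3.41 UMIs per 10000 at 12 weeks against 2.52 at 7 weeks (1.35, 1.14 to 1.60), and Cd81, a tetraspanin, 2.16 against 1.60 (1.35, 1.10 to 1.67). Of 18 transcription factors, 0 were past it higher and 2 past it lower. These were Ikzf3 at 0.711 UMIs per 10000 at 12 weeks against 1.36 at 7 weeks (0.523, 0.405 to 0.680), and Klf2, a factor of resting and recirculating lymphocytes, at 0.484 against 0.951 (0.509, 0.374 to 0.698). Spib stood at 1.90 at 12 weeks against 1.28 at 7 weeks (1.48, 1.17 to 1.88). Without cycling and Jchain-high cells it was past 1.5-fold higher, at 1.95 against 1.21 (1.61, 1.26 to 2.09), where 11.9% of 5007 genes were. The median log2 ratio was -0.02 for the signalling list, 0.00 for the surface list and -0.25 for the transcription factors, beside 0.10 over all genes tested. The 1 signalling gene and 2 transcription factors past 1.5-fold lower are too few to set these lists apart from all genes.

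Cells of the gate with at least 5 Jchain UMIs numbered 11 at 12 weeks and 2 at 7 weeks, against 480 and 113 cells with 4 or fewer. At 12 weeks they held 0.675 UMIs per 10000 of Bank1 against 6.42 in the cells with little Jchain (ratio 0.105, 0.054 to 0.184) and 1.07 of Fcmr against 4.83 (0.221, 0.133 to 0.347). Cd22 stood at 0.844 against 2.85 (0.297, 0.165 to 0.493), Ebf1 at 3.60 against 10.6 (0.340, 0.261 to 0.436), Blk at 0.506 against 1.08 (0.469, 0.212 to 0.903) and Ms4a1 at 6.36 against 11.5 (0.551, 0.452 to 0.665). Thus 6 of the 8 genes were more than 1.5-fold lower, where 27.4% of 4758 genes were, and 0 were higher, where 25.9% were. Cd79b at 11.5 UMIs per 10000 against 14.5 (0.794, 0.686 to 0.914) and Pax5 at 1.13 against 1.58 (0.713, 0.431 to 1.12) were within 1.5-fold. The median log2 ratio of the 8 was -1.32, beside 0.01 over all genes tested.

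The ratios of all 8 genes at 12 weeks were higher without 1 deep cell, which held 48578 UMIs but only 8 of Cd79a and 2 of Cd79b. Without it Cd79b stood at 1.08 times its level in the cells with little Jchain, Pax5 at 0.981, Ms4a1 at 0.751 and Blk at 0.574. Ebf1 stood at 0.446, Cd22 at 0.408, Fcmr at 0.304 and Bank1 at 0.133. Here 5 of the 8 genes were more than 1.5-fold lower, with no share over all genes given for this set. At 7 weeks, 6 of the 8 were more than 1.5-fold lower in the 2 cells, where 27.3% of 1460 genes were, and 0 higher, where 24.4% were. Cd79b there stood at 6.84 UMIs per 10000 against 12.2 in 113 cells (0.559, 0.335 to 0.879), and Ebf1 had 0 UMIs against 10.1 per 10000, at most 0.107 times that level when the 2 cells are set to 3 UMIs. Pax5 rested on 1 UMI and Cd22 on 3 in these 2 cells (0.190, 0.005 to 1.08, and 0.442, 0.090 to 1.32). Without the deeper of the 2 cells, 2 of the 8 genes were more than 1.5-fold lower and 3 higher, again with no share over all genes given.

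The 13 cells differed widely in how much Jchain they held. In 4 cells at 12 weeks Jchain counted 549 to 2403 UMIs, and in 1 cell at 7 weeks 1449. Pax5 and Cd22 had 0 UMIs in all of these cells. Ebf1 had 2 UMIs in 1 of the 4 cells at 12 weeks and 0 in the cell at 7 weeks, and Bank1 had 1 UMI in the 4 and 0 in the cell at 7 weeks. Cd79b was found in all of them, at 9.74 UMIs per 10000 over the 4 cells and 2.71 in the other, as was Cd79a, at 6.42 and 4.87. Some plasma cell genes were present there: Xbp1, a factor of secretory cells, had 25 to 73 UMIs in each of these cells, and Sdc1, which encodes CD138, 3 to 14. Mzb1, a gene of plasma cells and some other B lineage cells, had 50 to 707. Others were at or near 0: Prdm1 had 0 or 1 UMI in each of these cells, Irf4 0 to 2 and Tnfrsf17 0 to 4. The 7 cells with 5 to 28 Jchain UMIs at 12 weeks and the 1 with 23 at 7 weeks held 5 to 8 of the 8 genes each, with Pax5 in 5 of the 7 and in the 1, and Ms4a1 in all of them. The deep cell was among the 7, with 5 Jchain UMIs, 0 of Pax5 and 0 of Cd22. Beside these it held 26 UMIs of Xbp1, 321 of Mzb1, 3 of Prdm1, 4 of Irf4, 0 of Sdc1 and 0 of Tnfrsf17. Of those 7 cells, 4 also met the limit for cycling.

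Most cells with 100 or more Jchain UMIs lay outside the gate. There were 20 at 12 weeks and 5 at 7 weeks, of which 16 and 4 held a CD3 UMI. In a set chosen after the values were seen, 10 cells at 12 weeks with at least 2 Cd79a UMIs, 1 or 2 CD3 UMIs and 432 to 2980 Jchain UMIs, together 118293 UMIs, again held 0 UMIs of Pax5 and 0 of Cd22. Ebf1 had 3 UMIs and Bank1 2 in these 10 cells. Cd79b had 65 UMIs in 10 of 10 cells, and Ms4a1 15 UMIs in 7. The 1 such cell at 7 weeks had 8 UMIs of Cd79b, 6 of Cd79a and 0 of each of the other 7 genes. When the gate took up to 2 CD3 UMIs, 8 of the 8 genes were more than 1.5-fold lower in cells with at least 5 Jchain UMIs at 12 weeks, where 26.9% of 5774 genes were, with Ebf1 at 0.203, Pax5 at 0.444 and Cd79b at 0.576 times the level in cells with less. At 7 weeks 7 of the 8 were, where 33.9% of 2109 genes were.

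Among the other B cell genes, 15 of 18 surface genes tested were more than 1.5-fold lower in the Jchain-high cells at 12 weeks and 2 higher. Over all 4758 genes tested, 27.4% were lower and 25.9% higher. The deep cell is part of these cells, and no values without it are given for these lists. Fcer2a stood at 0.225 UMIs per 10000 against 3.11 in the cells with little Jchain (0.072, 0.020 to 0.186) and Cd24a at 11.6 against 4.41 (2.63, 2.25 to 3.05). Of 17 signalling genes, 9 were lower and 1, the linker Blnk, higher, at 3.49 against 2.02 (1.73, 1.31 to 2.26). Lyn, a Src-family kinase, stood at 0.619 against 1.91 (0.324, 0.160 to 0.584). Of 17 transcription factors, 9 were lower and 2 higher: Xbp1, at 11.6 against 0.813 (14.3, 11.7 to 17.4), and the coactivator Pou2af1, at 6.02 against 1.37 (4.38, 3.49 to 5.45). Rel, an NF-κB subunit, had 1 UMI in the 11 cells (0.037, 0.001 to 0.209).

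Cycling B cells, with at least 3 UMIs of 8 mitotic genes and 4 or fewer of Jchain, numbered 7 at 12 weeks and 3 at 7 weeks, against 473 and 110 not cycling. At 12 weeks Fcmr stood at 1.03 UMIs per 10000 in cycling cells against 4.99 in the others (0.206, 0.099 to 0.381), Bank1 at 2.57 against 6.58 (0.391, 0.252 to 0.579) and Ebf1 at 4.94 against 10.8 (0.457, 0.336 to 0.607). These 3 of 8 genes were more than 1.5-fold lower, where 22.7% of 4532 genes were, and 0 were higher, where 27.9% were. Cd79b at 11.0 against 14.6 (0.754, 0.616 to 0.914), Ms4a1 at 10.2 against 11.6 (0.878, 0.711 to 1.07), Pax5 at 1.34 against 1.59 (0.842, 0.444 to 1.46), Blk at 0.926 against 1.09 (0.853, 0.386 to 1.64) and Cd22 at 3.19 against 2.83 (1.13, 0.759 to 1.61) were within it.

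At 7 weeks Fcmr again stood low in cycling cells, with 2 UMIs in 3 cells (0.233, 0.028 to 0.851), and Bank1 at 3.0 against 5.51 (0.544, 0.217 to 1.13), so that 2 of 8 genes were past 1.5-fold lower, where 25.8% of 1364 genes were, and 0 higher, where 37.8% were. Ebf1 stood at 10.7 UMIs per 10000 against 10.1 (1.06, 0.682 to 1.58), unlike at 12 weeks, though the 2 ratios were not tested against each other. Pou2af1 was higher in the cycling cells at 12 weeks, at 3.40 against 1.29 (2.63, 1.77 to 3.76), and Ly6d, a surface antigen of B lineage cells, lower, at 1.03 against 5.49 (0.188, 0.090 to 0.346). Cycling cells were deeper, with a median of 14766 UMIs against 4534 in the others at 12 weeks, and with 3000 UMIs drawn from each cell the count of genes lower at 12 weeks was 5 of 8 in place of 3. With a Cd79a limit of 1 UMI for B cells it was 7 of 8. That limit let in 28 more CD3-negative cells at 12 weeks, which held a median of 0 of the 8 genes. Of these 28, 21 held at least 10 UMIs of Cst3, a gene read further below. No share over all genes is given for the thinned cells or for this limit.

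**Figure D2:**
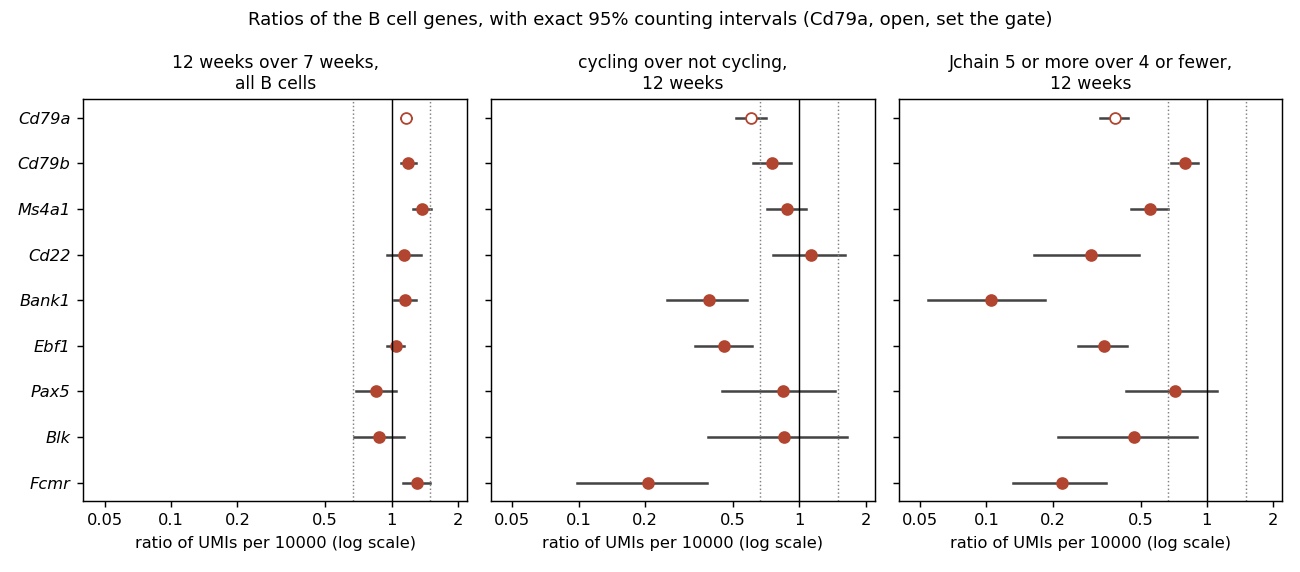
Ratio of UMIs per 10000 (log scale) for each gene at 12 weeks over 7 weeks in all gated B cells, and at 12 weeks for 7 cycling over 473 other cells and for 11 cells with at least 5 Jchain UMIs over 480 with fewer; lines are exact 95% counting intervals and dotted lines mark 1.5-fold. Age ratios lie between 0.847 and 1.37, while Bank1 and Fcmr lie below 0.4 in both other panels.

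**Figure D3:**
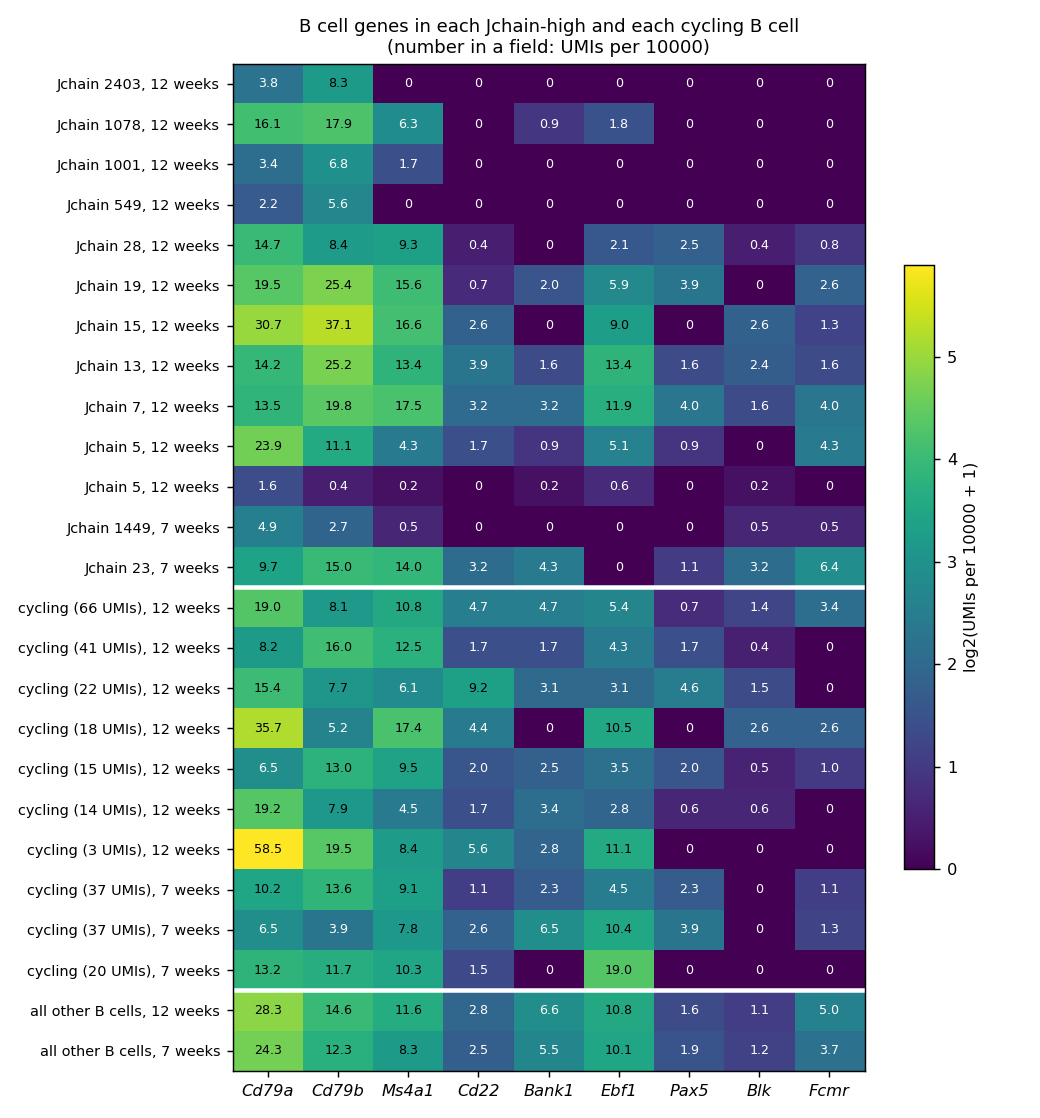
UMIs per 10000 of the 9 genes (columns) in each of the 13 Jchain-high and 10 cycling B cells, and in all other gated B cells of each age (bottom rows); colour is log2(UMIs per 10000 + 1). The 5 cells with 549 or more Jchain UMIs are empty for Cd22 and Pax5 and hold Cd79a and Cd79b.

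Outside the B cells, the genes were read in 2056 T cells at 12 weeks and 914 at 7 weeks, taken as cells with at least 1 CD3 UMI. Any of the 8 genes was found in 27.7% of these at 12 weeks (25.8 to 29.7) and 25.3% at 7 weeks (22.5 to 28.2), or 18.2% and 14.7% with each cell thinned to 3000 UMIs. The cells with at least 2 Cd79a UMIs are part of them, and with them the 9 genes stood at 7.38% to 8.88% of their B cell level at 12 weeks and 5.64% to 7.48% at 7 weeks. Without those cells, 1866 and 846 T cells remained and the shares with any of the 8 genes were 20.6% and 19.5%.

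In the remaining T cells the genes no longer stood at a common fraction of their B cell level. Ms4a1 was at 0.452% of it at 12 weeks (0.348 to 0.577) and 0.482% at 7 weeks (0.315 to 0.706), and Bank1 at 0.615% and 0.489%. Cd79b was at 1.32% at 12 weeks (1.16 to 1.5) and 1.12% at 7 weeks (0.899 to 1.38), found in 10.2% and 8.98% of the cells at median depths of 4898 and 5700 UMIs. Cd22 was at 2.04% (1.59 to 2.58) and 1.77% (1.18 to 2.56). The intervals of Cd79b and Cd22 lay above those of Ms4a1 at both ages, so the genes did not keep the ratio they have in B cells. The full T cell gate held 125 cells at 12 weeks and 66 at 7 weeks with at least 10 Cst3 UMIs, read further below. At 12 weeks such cells with fewer than 2 Cd79a UMIs held 52 Cd22 UMIs, 31 of them in cells without CD3. The remaining T cells held 70 Cd22 UMIs at 12 weeks. The part of Cst3-high cells in these levels was not tested, so the levels are not shown to be a trait of T cells. Ebf1 was at 0.594% at 12 weeks and 0.374% at 7 weeks. Of its UMIs at 12 weeks, 57.9% lay in 5 cells, each with only 1 or 2 CD3 UMIs. Those with 21, 7 and 4 Ebf1 UMIs held 22 to 206 UMIs of Col3a1, a collagen of fibroblasts. The one with 9 held 77 of Tm4sf1, a gene of endothelial cells, and the one with 3 held 11 of Cd79b. Pax5 was at 0.767% and 0.992% in the remaining T cells, on 15 and 12 UMIs. Free RNA in droplets can give values this low, and its part was not tested.

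Blk was the exception within a small T cell subset. Among T cells with fewer than 2 Cd79a UMIs, those with a UMI of Cd163l1, a marker of interleukin-17-producing γδ T cells, numbered 6 at 12 weeks and 7 at 7 weeks. They held 5 Blk UMIs in 3 of the 6 cells and 7 Blk UMIs in 3 of the 7, which is 71.6% of the B cell level at 12 weeks (23.2 to 167) and 137% at 7 weeks (54.9 to 281). The other T cells held 15 Blk UMIs in 1860 cells at 12 weeks and 7 in 839 at 7 weeks, or 1.14% (0.641 to 1.89) and 0.892% (0.359 to 1.84). Cd22, Ebf1 and Pax5 had 0 UMIs in the Cd163l1-positive cells at both ages, with limits of 3 UMIs at 16.5%, 4.42% and 28.9% of the B cell level at 12 weeks and 29.3%, 7.20% and 38.2% at 7 weeks.

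Plasmacytoid dendritic cells, the interferon-producing dendritic cells marked by Siglech, were taken as cells with at least 3 Siglech UMIs: 50 at 12 weeks and 28 at 7 weeks, of which 17 and 12 held a CD3 UMI. Cd79b was found in 28.0% of them at 12 weeks and 25% at 7 weeks, at 2.67% (1.5 to 4.41) and 1.92% (0.773 to 3.96) of the B cell level. Bank1 was at 2.10% (0.683 to 4.91) and 2.51% (0.683 to 6.42), on 5 and 4 UMIs. Pax5 was found in 0 of 50 and 0 of 28 cells, which by a limit of 3 counts allows a share of up to 6% and 10.7% of cells with a UMI, and a level of up to 4.93% and 5.41% of that in B cells. Each of the other genes rested on 4 or fewer UMIs at either age. Plasmacytoid markers other than Siglech summed to 117 UMIs per 10000 at 12 weeks and 81.4 at 7 weeks in them, against 13.2 and 11.9 in the gated B cells. They were deep, with medians of 7818 UMIs at 12 weeks and 9984 at 7 weeks.

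Cells with at least 10 UMIs of Cst3, a protease inhibitor gene that is high in dendritic cells, numbered 258 at 12 weeks and 100 at 7 weeks. They were not a pure dendritic set: macrophage markers summed to 74.6 UMIs per 10000 at 12 weeks and 39.0 at 7 weeks. Dendritic cell markers summed to 4.97 and 5.06, and islet endocrine markers to 163 and 37.9. Plasma cell markers summed to 89.6 and 60.2, but to 1.98 and 1.83 without the cells with 2 or more Cd79a UMIs. A CD3 UMI was held by 125 and 66 cells, and 12 and 1 were gated B cells. Flt3, a receptor of dendritic cells, was found in 131 and 53 of them. They are therefore called Cst3-high cells. At least 1 of the 8 genes was found in 54.3% of them at 12 weeks and 49.0% at 7 weeks, and in 48.7% and 45.2% once 32 and 7 cells with 2 or more Cd79a UMIs were left out. Thinned to 3000 UMIs per cell, the share in the whole gate was 24.8% at 12 weeks and 13.0% at 7 weeks. The remaining cells had medians of 12270 and 14156 UMIs.

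In Cst3-high cells with fewer than 2 Cd79a UMIs, Cd22 was the gene seen most relative to B cells at both ages, and Blk followed at 12 weeks. In all 258 cells at 12 weeks, which include those with 2 or more Cd79a UMIs, Blk came first at 9.63%, with Cd22 at 9.04% and Cd79b at 8.64%. In the 226 cells left at 12 weeks Cd22 stood at 6.23% of its B cell level (4.66 to 8.17), against 3.03% in the 93 at 7 weeks (1.45 to 5.57), and Blk at 4.99% (2.85 to 8.11) against 1.21% (0.147 to 4.37). Ms4a1 stood at 0.610% and 0.709%. By further markers, a split made after the values were seen, Cd22 reached 7.13% (4.84 to 10.1) in 122 Flt3-positive cells and 11.3% (6.18 to 19.0) in 31 C1q-positive cells at 12 weeks, and 2.09% (0.680 to 4.89) in the 67 cells with neither and few endocrine transcripts. At 7 weeks the same sets held 9, 1 and 0 Cd22 UMIs.

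Ebf1 in Cst3-high cells came from few cells. In the 226 and 93 of them with fewer than 2 Cd79a UMIs, it stood at 2.63% of the B cell level at 12 weeks (2.10 to 3.27) and 0.372% at 7 weeks (0.121 to 0.869). There 5 cells held 78.0% of the 82 UMIs at 12 weeks. In the whole 12 week library 9 cells held at least 3 Ebf1 UMIs and fewer than 2 of Cd79a, against 1 at 7 weeks. Picked after their values were seen, 5 of the 9 held 22 to 206 UMIs of Col3a1, a collagen of fibroblasts, with 119 to 287 of Dcn, and 3 held 20 to 77 UMIs of Tm4sf1, a gene of endothelial cells, with 0 of Col3a1. Ebf1 in these 9 cells ranged from 3 to 21 UMIs, and Pax5 summed to 3. Of these Pax5 UMIs, 2 lay in the remaining cell, which held 11 UMIs of Cd79b and 0 of Cst3.

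**Figure D4:**
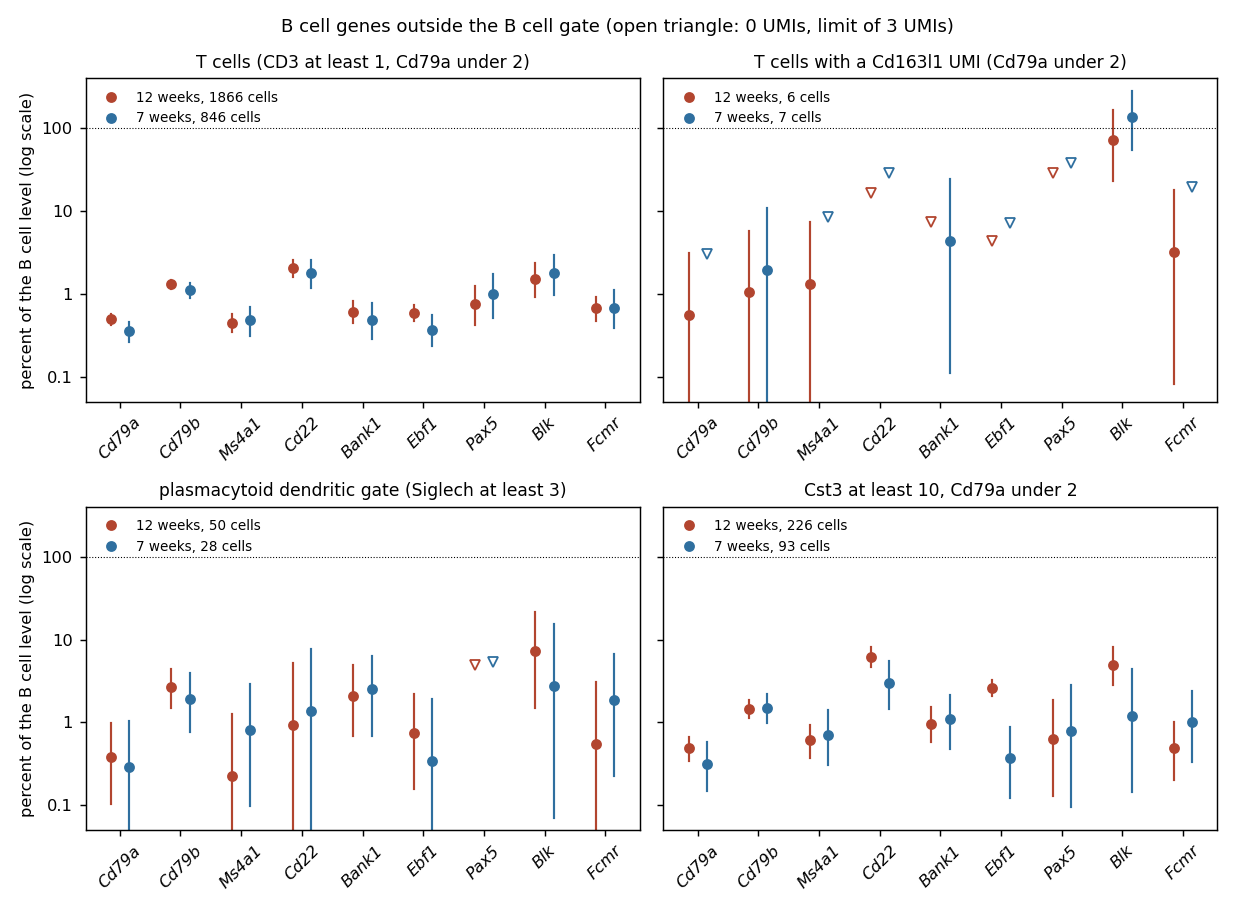
Level of each gene as a percent of its level in gated B cells of the same age (log scale), in T cells and Cst3-high cells with fewer than 2 Cd79a UMIs, in Cd163l1-positive T cells and in the plasmacytoid dendritic gate, at 12 weeks (red) and 7 weeks (blue). Lines are exact 95% Poisson intervals of the UMIs; Blk reaches 71.6% and 137% in the Cd163l1-positive T cells, where open triangles mark genes with 0 UMIs.

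Across 13 cell classes of both libraries with at least 10 cells, the 36 pairs of the 9 genes had Pearson correlations of log2(UMIs per 10000 + 0.1) from 0.899 to 0.985, with a median of 0.955. The points share libraries and are few, and B cells set the range. Among 10807 genes, Fcer2a stood second for Bank1 (0.977), after the unnamed model Gm43603 (0.984), which also led for Fcmr (0.981). Cd79b was most like the model Gm11998 (0.974), Cd22 most like Scd1 (0.966), an enzyme that desaturates fatty acids, and Blk most like the model 4930426D05Rik (0.974).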

How the data were processed

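Matrices of whole-number UMI counts per gene and barcode, not normalized, were deposited by the authors. The submitters' processing notes name Cell Ranger 1.3.1 and mm10. Barcodes with at least 200 genes and at most 10% mitochondrial UMIs were kept (8 removed at 12 weeks, 4 at 7 weeks). Doublets were scored with the Scrublet method (2 simulated per barcode, 2000 variable genes, 30 components), and the highest scores were removed in both libraries alike at 0.8% per 1000 barcodes, which took 63 at 12 weeks and 10 at 7 weeks. UMIs were summed per class and given per 10000, which is not scaled by gene length, so levels are compared within a gene. Poisson, Clopper-Pearson and conditional binomial intervals were used, and a count of 0 was set to 3 UMIs. A gene was counted past 1.5-fold over genes with at least 50 UMIs in the groups compared. The interval calculation was checked on simulated Poisson counts. These hold no extra spread between cells, so the check does not show how well the intervals cover in real cells. Thinning to 3000 UMIs left out 0 cells at 12 weeks and 53 at 7 weeks. From each list of 20 genes, the 4 best sampled in B cells and the 3 whose interval bound lay furthest from 1 were named, of which some are printed. Cd37 has 2 rows under its name and was left out. For each of the 9 genes the 2 most alike others were ranked. Some genes that these rules name are not reported here. Members and lists were chosen with earlier results of these data known. Alternatives covered filters, gates, scaling, weighting and depth. Python 3.11.15, numpy 2.4.6, scipy 1.17.1, pandas 2.3.3, scikit-learn 1.9.0 and matplotlib 3.10.9 were used.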

Additional observations from a re-analysis of the deposited data

How the results depend on the processing

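No paired analysis was possible because each age has 1 library and the labels give no replicate numbers; for the same reason no replicate could be left out. Of the counts and shares recomputed under alternatives, 120 stayed within 1.5 times the main count or inside the share's interval and 22 moved. Of the ratios of single genes, 179 stayed inside their interval, 27 moved and 1 reversed. Alternatives with up to 2 CD3 UMIs, with at least 100 Jchain UMIs, without the deepest Jchain-high cell, and without Cd79a-positive cells in the Siglech and Cst3 gates were chosen after seeing the data. Thinned to 3000 UMIs, 1 gene in place of 0 was past 1.5-fold higher at 12 weeks, and Blk in Jchain-high cells at 12 weeks reversed to 1.03 times the level in the others, on few UMIs. Among cycling cells at 12 weeks, 7 of 8 genes were past 1.5-fold lower with a Cd79a limit of 1 UMI and 5 when thinned. Of the 28 cells that the Cd79a limit of 1 UMI added to the B cells at 12 weeks, 21 held at least 10 Cst3 UMIs. Counts of genes under the alternatives in this section have no share over all genes beside them. Among cycling cells at 7 weeks, 1 gene was past it higher with at most 5% mitochondrial UMIs and 2 when thinned, and 1 was past it lower with at most 5% mitochondrial UMIs and 4 with ribosomal and mitochondrial UMIs left out. In Jchain-high cells at 7 weeks, 1 gene was past it higher with each cell weighted alike, 1 when thinned and 3 without the deepest cell, and 3 were past it lower when thinned and 2 without the deepest cell. The share of T cells with any of the 8 genes was 18.2% at 12 weeks and 14.7% at 7 weeks when thinned, 19.4% and 18.8% from 3 CD3 UMIs, and 20.6% and 19.5% without cells with 2 or more Cd79a UMIs. When thinned, the share was 12% and 25% in the Siglech gate and 24.8% and 13.0% in the Cst3 gate. For the thinned shares, fewer UMIs per cell follow from the thinning itself; the cause of the other changes was not tested. Depth limits Pax5, Blk and Cd22 most, and the 2 Jchain-high and 3 cycling cells at 7 weeks limit every ratio there.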
